A study of Mus musculus with 6 samples.

Results

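The genes described here are 60 factors that build ribosomes, read from a table of 49315 genes in mouse embryonic fibroblasts. They were picked by gene symbol, and all 60 were found, each in 1 row. The list was selected on function with earlier results of the same genotype comparison in view, so every difference below describes the list and none is independent evidence for it. The R206H group held 3 libraries of cells heterozygous for R206H in the receptor gene Acvr1 (Acvr1R206H/+), the change found in fibrodysplasia ossificans progressiva (FOP), a disease of bone growth in soft tissue. The WT group held 3 libraries of wild-type cells (Acvr1+/+). Both groups came from E13.5 embryos, were grown in DMEM with 10% fetal bovine serum and antibiotics with no treatment named, and gave RNA at passage 0 after 2 days in plates. The design text calls the libraries biological replicates. The sources used here give neither strain nor sex, nor whether a library came from 1 embryo or a pool. If embryos were pooled or split, p-values cover only the spread between these libraries. Over all genes the first principal component separated the genotypes, and WT library 1 lay away from the rest on the second.

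Ribosomes are assembled in the nucleolus, where RNA polymerase I (Pol I) copies ribosomal DNA into one long precursor RNA. Guide RNAs in box C/D particles direct methylation of that RNA, and those in box H/ACA particles direct its pseudouridylation. Other factors fold, cut and export the parts that become the small and the large subunit. The work is costly for a cell, is under the control of growth signals, and the transcription factor Myc is a known activator of many of these genes. The members were sorted by role into 7 genes of the Pol I machinery, 8 of box C/D and H/ACA particles, 21 of the small subunit, 18 of the large subunit and 6 nucleolar proteins with several roles.

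Ribosome biogenesis genes had lower levels in R206H fibroblasts, by a similar modest amount in most members. Summed over the 60 genes, the level was 7064, 6833 and 5951 TPM in R206H libraries 1, 2 and 3 and 7988, 8575 and 8624 TPM in WT libraries 1, 2 and 3. All 3 R206H sums lay under all 3 WT sums, and R206H library 3 was the lowest. The sum averaged 6616 ± 587 TPM in R206H and 8396 ± 354 TPM in WT (SD, n = 3 each, as for all SDs below), a change of -21.2%. Single members had R206H means at 0.665 to 1.01 times the WT mean, with a median of 0.802 and 29 members under 0.8. TPM means transcripts per 1000000 and is a share of the library, corrected for gene length. Npm1 alone made up 18.9% of the R206H sum and 19.6% of the WT sum, and without it the change was -20.5%. In these bulk samples fewer cells of a type and less RNA per cell cannot be told apart.

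All 60 members passed the filter on low values (1 TPM or more in at least 3 libraries), as did 14818 genes in all. Differences below are of log2(TPM + 1), R206H minus WT, with p-values from limma adjusted over all 14818 genes. Of the 60 members, 59 had a negative difference, against 46.4% of all genes tested. The median was -0.32, against 0.02 over all genes tested, and members ran from -0.54 to 0.01. The 3 R206H libraries lay under all 3 WT libraries in 53 members, and in 15.0% of all genes. At an unadjusted p under 0.05 with limma, 53 members were lower and 0 higher, where 11.7% of all genes were lower and 14.4% higher. After adjustment at 0.05, 5 members were called, all lower in R206H: Gnl3, Nop16, Wdr12, Eif6 and Lyar. Over all genes 2.04% were called, 0.790% lower and 1.26% higher. Because the members were chosen with this comparison known, these shares stand as background and nothing is read from them.

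The single calls rest on small margins. Of the 60 members, 42 had an adjusted p under 0.1, where 5.16% of all genes were lower at that level. limma voom on read counts rebuilt from TPM called 40 members, all lower, against 4.11% of all genes. Without R206H library 1 limma called 20 members (722 of all genes, either direction), and without WT library 1 it called 2 (288 of all genes). Without R206H library 2 or 3 or WT library 2 or 3 it called 0 members. Over all genes those fits called 0, 1, 5 and 1, in the same order. In those 4 fits 46 to 50 members were lower at an unadjusted limma p under 0.05, against 7.59% to 9.37% of all genes. The median difference of the members was -0.25 without R206H library 3, the lowest library, and -0.34 without WT library 1.

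The libraries kept one order across the classes. Taking each gene's log2(TPM + 1) minus its mean over the 6 libraries, the median over the 60 members was -0.05, -0.12 and -0.28 in R206H libraries 1, 2 and 3, against 0.11, 0.18 and 0.19 in WT libraries 1, 2 and 3. R206H library 3 was the lowest of all 6 libraries in 54 members, and R206H library 1 was the highest R206H library in 43. WT library 1 was the lowest WT library in 38. The R206H libraries were more spread than the WT ones: the median coefficient of variation of a member was 8.81% in R206H and 4.24% in WT, against 10.3% and 9.53% over all genes tested. Marker sums were also ordered over the R206H libraries. The sum of epithelial markers, for another cell type that embryo cultures can hold, was 375, 284 and 182 TPM in R206H libraries 1, 2 and 3 and 566, 527 and 554 TPM in WT libraries 1, 2 and 3. The macrophage sum was 129, 97.6 and 54 TPM in R206H libraries 1, 2 and 3 and 99.8, 81.9 and 65 TPM in WT libraries 1, 2 and 3. The endothelial sum was 15.2, 11.6 and 8.74 TPM in R206H libraries 1, 2 and 3 and 37.3, 15.2 and 18.1 TPM in WT libraries 1, 2 and 3. Within R206H all 3 sums were thus highest in library 1 and lowest in library 3, as the members were. Within WT all 3 sums were highest in library 1, where the members' summed level was lowest. The fibroblast sum ran the other way within R206H. It was 10939, 12083 and 13504 TPM in R206H libraries 1, 2 and 3. In WT libraries 1, 2 and 3 it was 9339.9, 7971 and 7173 TPM. The most abundant genes weigh most in such sums, and in each list some markers did not keep the order of the sum. The median deviation over the tested markers of each list did keep it within R206H. In R206H libraries 1, 2 and 3 that median was -0.17, -0.55 and -0.92 for epithelial markers. For fibroblast markers it was 0.16, 0.36 and 0.78. The part of these cell types in the members' differences was not tested.

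**Figure D1:**
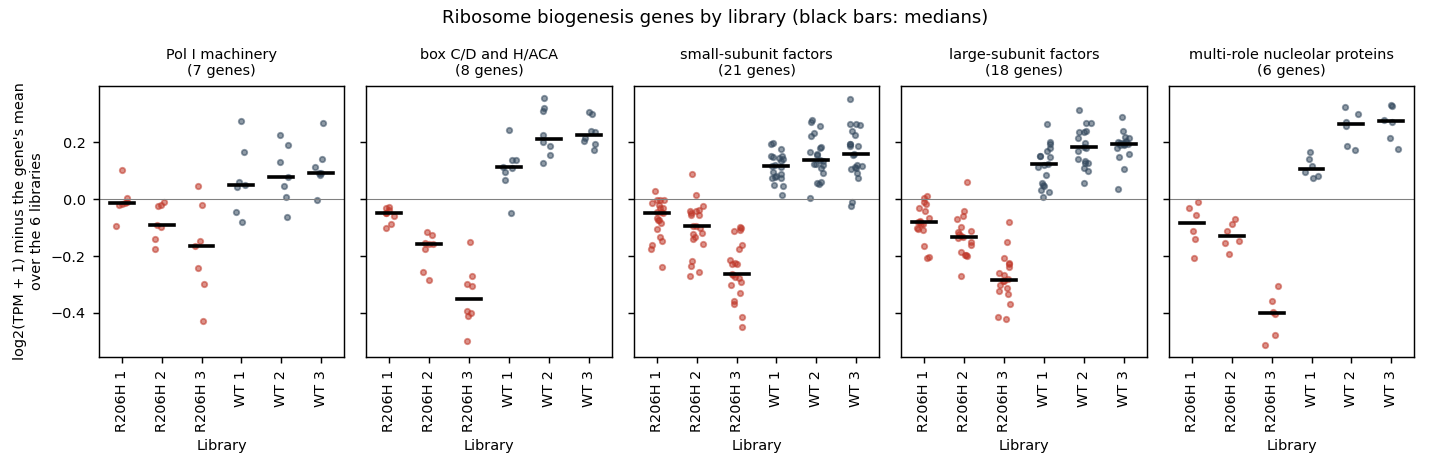
Each point is 1 gene in 1 library, as log2(TPM + 1) minus that gene's mean over the 6 libraries (y axis), for the 5 classes, with R206H libraries in red left of WT libraries in dark blue and medians as black bars. In every class all 3 R206H medians lie under all 3 WT medians, R206H library 3 is the lowest, and the gap is narrowest in the Pol I machinery.

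The Pol I machinery had the smallest differences, with a median of -0.19, and its values were uneven. Its summed level was 385, 371 and 354 TPM in R206H libraries 1, 2 and 3 and 401, 408 and 415 TPM in WT libraries 1, 2 and 3. None of the 7 genes passed limma after adjustment. Before adjustment (p under 0.05) 4 were lower and voom called 2, against 11.7% and 4.11% of all genes. The largest difference belonged to Polr1b, the second-largest subunit of the enzyme, which had 25.6, 22.8 and 19 TPM in R206H libraries 1, 2 and 3, against 31.5, 27.3 and 31.3 TPM in WT libraries 1, 2 and 3 (log2 difference -0.41, SE 0.119, limma adjusted p = 0.0948). Polr1a, the largest catalytic subunit, had 36, 34.2 and 29.5 TPM in R206H libraries 1, 2 and 3, against 41.1, 40 and 39.5 TPM in WT libraries 1, 2 and 3 (log2 difference -0.27, SE 0.085, limma adjusted p = 0.109). Polr1a and Polr1b were the genes that voom called. In both, every R206H library was under every WT library and library 3 was the lowest.

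The other subunits and factors differed less. Taf1d, a subunit of the promoter selectivity factor SL1, had a log2 difference of -0.24 with no overlap of groups, and Polr1c, a subunit shared with RNA polymerase III, one of -0.19 with overlap. Rrn3, which links the polymerase to its promoter complex and responds to growth signals, averaged 79.9 ± 4.63 TPM in R206H and 85.7 ± 2.41 TPM in WT (log2 difference -0.10, SE 0.062, limma adjusted p = 0.344). The 2 members nearest to 0 belonged to this class as well. Ubtf, the factor that binds and opens ribosomal DNA, had 94, 93.4 and 97.9 TPM in R206H libraries 1, 2 and 3, against 98.2, 90.7 and 94.5 TPM in WT libraries 1, 2 and 3 (log2 difference 0.01), and its groups were interleaved. Polr1e, a subunit of the initiating form of the enzyme, averaged 24.5 ± 2.16 TPM in R206H and 25.1 ± 1.62 TPM in WT (log2 difference -0.04). Ubtf was the only member of the 60 with a positive difference, and it turned negative with voom, median-of-ratios scaling and quantile normalization, and without R206H library 3 or WT library 2 (range -0.02 to 0.04 in 17 alternatives).

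Genes of the modification particles had a median difference of -0.38. Their summed level was 993, 907 and 823 TPM in R206H libraries 1, 2 and 3 and 1116, 1225 and 1223 TPM in WT libraries 1, 2 and 3. None of the 8 passed limma after adjustment. All 8 were lower before adjustment and voom called 7, against 11.7% and 4.11% of all genes. Among the box H/ACA proteins, Nhp2, a core RNA-binding subunit, had 258, 225 and 209 TPM in R206H libraries 1, 2 and 3, against 296, 351 and 338 TPM in WT libraries 1, 2 and 3 (log2 difference -0.51, SE 0.097, limma adjusted p = 0.0508). Dkc1, the pseudouridine synthase dyskerin, averaged 55.3 ± 6.74 TPM in R206H and 77.2 ± 6.63 TPM in WT (log2 difference -0.48, SE 0.104, limma adjusted p = 0.0617). Nhp2 and Dkc1 were at 0.702 and 0.716 times the WT mean. Gar1, which helps release the product, lay just outside the threshold with 85.6, 84.1 and 74.6 TPM in R206H libraries 1, 2 and 3, against 101, 106 and 105 TPM in WT libraries 1, 2 and 3 (log2 difference -0.35, SE 0.067, limma adjusted p = 0.0501). Nop10, the smallest of the 4 core proteins, had 118, 111 and 108 TPM in R206H libraries 1, 2 and 3, against 116, 131 and 139.6 TPM in WT libraries 1, 2 and 3. Its R206H library 1 was above WT library 1, so that Nop10 was the only member of the class whose groups overlapped (log2 difference -0.20).

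In the box C/D particle, Fbl encodes fibrillarin, the methyltransferase, and had 174, 162 and 149 TPM in R206H libraries 1, 2 and 3, against 195, 201 and 208 TPM in WT libraries 1, 2 and 3 (log2 difference -0.31, SE 0.068, limma adjusted p = 0.0609). Its scaffold partners Nop56 and Nop58 had log2 differences of -0.35 and -0.46, at 0.783 and 0.729 times the WT mean. Nolc1, the chaperone Nopp140 that serves both kinds of particle, averaged 111 ± 14.3 TPM in R206H and 146 ± 3.78 TPM in WT (log2 difference -0.40, SE 0.095, limma adjusted p = 0.0671). In all 4 of these genes the groups did not overlap, where R206H lay wholly under WT in 15.0% of all genes.

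The 21 small-subunit factors had a median difference of -0.27, and all 21 values were negative, from -0.47 to -0.15. Their summed level was 1242, 1215 and 1087 TPM in R206H libraries 1, 2 and 3 and 1409.6, 1459 and 1464 TPM in WT libraries 1, 2 and 3. None passed limma after adjustment. Before adjustment 18 were lower and voom called 10, against 11.7% and 4.11% of all genes. Groups did not overlap in 19 of the 21, Wdr75 and Ddx10 being the exceptions, where R206H lay wholly under WT in 15.0% of all genes. Rrp9, a protein specific to the U3 particle that starts the cutting of the precursor, had the largest difference, with 82.5, 70.4 and 63 TPM in R206H libraries 1, 2 and 3, against 88.9, 102 and 108 TPM in WT libraries 1, 2 and 3 (log2 difference -0.47, SE 0.114, limma adjusted p = 0.0722). Nol10 had the smallest p of the class, with 44.3, 51.1 and 41.6 TPM in R206H libraries 1, 2 and 3, against 60.1, 62.8 and 58.6 TPM in WT libraries 1, 2 and 3 (log2 difference -0.40, SE 0.085, limma adjusted p = 0.0592); its yeast counterpart is Enp2. Rrp12, known in yeast for carrying subunits out of the nucleus, averaged 49.5 ± 5.95 TPM in R206H and 65.2 ± 2.98 TPM in WT (log2 difference -0.40, SE 0.093, limma adjusted p = 0.0671).

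Subcomplexes of the small-subunit processome could be compared by their members' log2 differences. Of the group that is recruited first and is also needed for Pol I transcription, Utp4, Wdr43, Utp15, Heatr1 and Wdr75 had -0.38, -0.33, -0.32, -0.30 and -0.21. Heatr1 was among the steadiest, with 43.3, 43 and 37.7 TPM in R206H libraries 1, 2 and 3, against 52, 51.6 and 50 TPM in WT libraries 1, 2 and 3 (limma adjusted p = 0.0671). In the UTP-B group, Wdr36, Utp18 and Wdr3 had -0.25, -0.24 and -0.21. Wdr36 averaged 96 ± 3.46 TPM in R206H and 114 ± 4.2 TPM in WT, and its groups did not overlap. Imp4, of the U3-bound Mpp10 complex, had -0.29, the yeast-defined partners Noc4l and Nop14 had -0.28 and -0.27, and the cyclase-like Rcl1 and the scaffold Utp20 had -0.36 and -0.21. The late factors Tsr1, Bysl and Ltv1, which act on the nearly finished small subunit, had -0.25, -0.21 and -0.20. Ddx10, a helicase, and Nol6 had -0.18 and -0.15, the values nearest to 0 in the class.

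Among the 18 large-subunit factors, limma called 4 lower in R206H after adjustment, where 0.790% of all genes were. The class had a median difference of -0.33. The summed level was 1901, 1814 and 1638 TPM in R206H libraries 1, 2 and 3 and 2154, 2251 and 2257 TPM in WT libraries 1, 2 and 3. All 18 values were negative, as were 46.4% over all genes. At an unadjusted p under 0.05, 17 were lower, and voom called 15, against 11.7% and 4.11% of all genes. Gnl3 encodes nucleostemin, a nucleolar GTP-binding protein abundant in stem and growing cells (ENSMUSG00000042354, chromosome 14, 31012433 to 31019152, minus strand, GRCm38). It had 159, 164 and 142 TPM in R206H libraries 1, 2 and 3, against 200.5, 209.8 and 205 TPM in WT libraries 1, 2 and 3 (log2 difference -0.41, SE 0.065, limma adjusted p = 0.0466). The 3 WT libraries lay close together and well above all R206H libraries.

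Wdr12 (ENSMUSG00000026019, chromosome 1, 60069785 to 60098645, minus strand) belongs with Pes1 and Bop1 to the PeBoW complex, which is needed to mature the large-subunit RNA. It had 9.94, 10 and 8.46 TPM in R206H libraries 1, 2 and 3, against 14.1, 14.7 and 13.9 TPM in WT libraries 1, 2 and 3 (log2 difference -0.54, SE 0.097, limma adjusted p = 0.0476), the largest relative decrease of the 60 members at 0.665 times the WT mean. Wdr12 was also the least abundant member per length, and its partners had smaller differences. Pes1 had a log2 difference of -0.23 at 165 ± 17.5 TPM in R206H and 192 ± 8.67 TPM in WT, and Bop1 one of -0.22 at 137 ± 5.7 TPM in R206H and 159.5 ± 6.25 TPM in WT, and neither passed (limma adjusted p = 0.156 and 0.0774). The added 1 TPM makes the difference of Wdr12 smaller: it was -0.59 with a pseudocount of 0.1, where the call was lost (limma adjusted p = 0.0504, range 0.0141 to 0.167 over the alternatives), and -0.62 with voom. Whether Wdr12 differs from its partners was not tested.

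Eif6 (ENSMUSG00000027613, chromosome 2, 155819832 to 155826925, minus strand) encodes a factor that keeps new large subunits from joining small ones too early. It had 237, 217 and 212 TPM in R206H libraries 1, 2 and 3, against 270.1, 279 and 285 TPM in WT libraries 1, 2 and 3 (log2 difference -0.33, SE 0.059, limma adjusted p = 0.0476). Nop16 (ENSMUSG00000025869, chromosome 13, 54584185 to 54590090, minus strand), a nucleolar protein of large-subunit precursors, had 98.8, 92.3 and 86.4 TPM in R206H libraries 1, 2 and 3, against 117, 119 and 122 TPM in WT libraries 1, 2 and 3 (log2 difference -0.37, SE 0.063, limma adjusted p = 0.0476). In both genes the groups were well apart, and R206H library 3 was again the lowest. The calls of Gnl3, Wdr12, Eif6 and Nop16 held in 9, 7, 5 and 8 of 17 alternatives, always with lower values in R206H.

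Other large-subunit genes had values close to these without passing. Noc2l and its partner Noc3l had log2 differences of -0.31 and -0.38, Mrto4, which holds the place of the stalk protein, one of -0.40, and Nip7, an early assembly factor, one of -0.31 (limma adjusted p = 0.0524, 0.0647, 0.0571 and 0.0589). Noc2l averaged 196 ± 12.5 TPM in R206H and 242 ± 6.58 TPM in WT. Nop2, a methyltransferase of the large-subunit RNA, averaged 160.1 ± 23.5 TPM in R206H and 205 ± 3.09 TPM in WT (log2 difference -0.37), with its R206H values spread from 135 to 181 TPM. Nmd3, the adaptor for export of the large subunit, had -0.37, and Rrs1, which helps add the 5S particle, -0.36. Rrp1b, Ebna1bp2, the GTP-binding protein Gnl2 and the helicase Ddx18 had -0.33, -0.33, -0.27 and -0.25. Gnl3l, the close relative of nucleostemin, had the smallest difference of the class, with 51.8, 57.1 and 51.6 TPM in R206H libraries 1, 2 and 3, against 54.9, 56.8 and 56 TPM in WT libraries 1, 2 and 3 (log2 difference -0.06, SE 0.062, limma adjusted p = 0.555). Its groups overlapped, unlike those of Gnl3.

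The 6 nucleolar proteins with several roles had the most negative class median, -0.42. Their summed level was 2543, 2526 and 2049 TPM in R206H libraries 1, 2 and 3 and 2906, 3231 and 3265 TPM in WT libraries 1, 2 and 3. After adjustment limma called 1 lower in R206H, where 0.790% of all genes were. All 6 were lower at an unadjusted p under 0.05, and voom called all 6, against 11.7% and 4.11% of all genes. The called gene was Lyar (ENSMUSG00000067367, chromosome 5, 38220470 to 38234306, plus strand), a nucleolar zinc-finger protein linked to cell growth, with 77.5, 80.9 and 67.8 TPM in R206H libraries 1, 2 and 3, against 95.8, 112 and 113 TPM in WT libraries 1, 2 and 3 (log2 difference -0.50, SE 0.093, limma adjusted p = 0.0498). WT library 1 was lower than the other WT libraries but above every R206H library, and the call held in 5 of 17 alternatives. Ncl, nucleolin, had 337, 344 and 261 TPM in R206H libraries 1, 2 and 3, against 410.1, 458 and 467 TPM in WT libraries 1, 2 and 3 (log2 difference -0.51, SE 0.114, limma adjusted p = 0.0635). Npm1, nucleophosmin and the most abundant member, had 1322, 1347 and 1082 TPM in R206H libraries 1, 2 and 3, against 1505, 1709.7 and 1727 TPM in WT libraries 1, 2 and 3 (log2 difference -0.40, SE 0.102, limma adjusted p = 0.0761). In both, R206H libraries 1 and 2 were close together and library 3 was lower. Ddx21, a helicase of the nucleolus, averaged 189 ± 29.5 TPM in R206H and 256 ± 16 TPM in WT (log2 difference -0.44). Mybbp1a and Pa2g4, the growth-related protein EBP1, had log2 differences of -0.38 and -0.28.

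**Figure D2:**
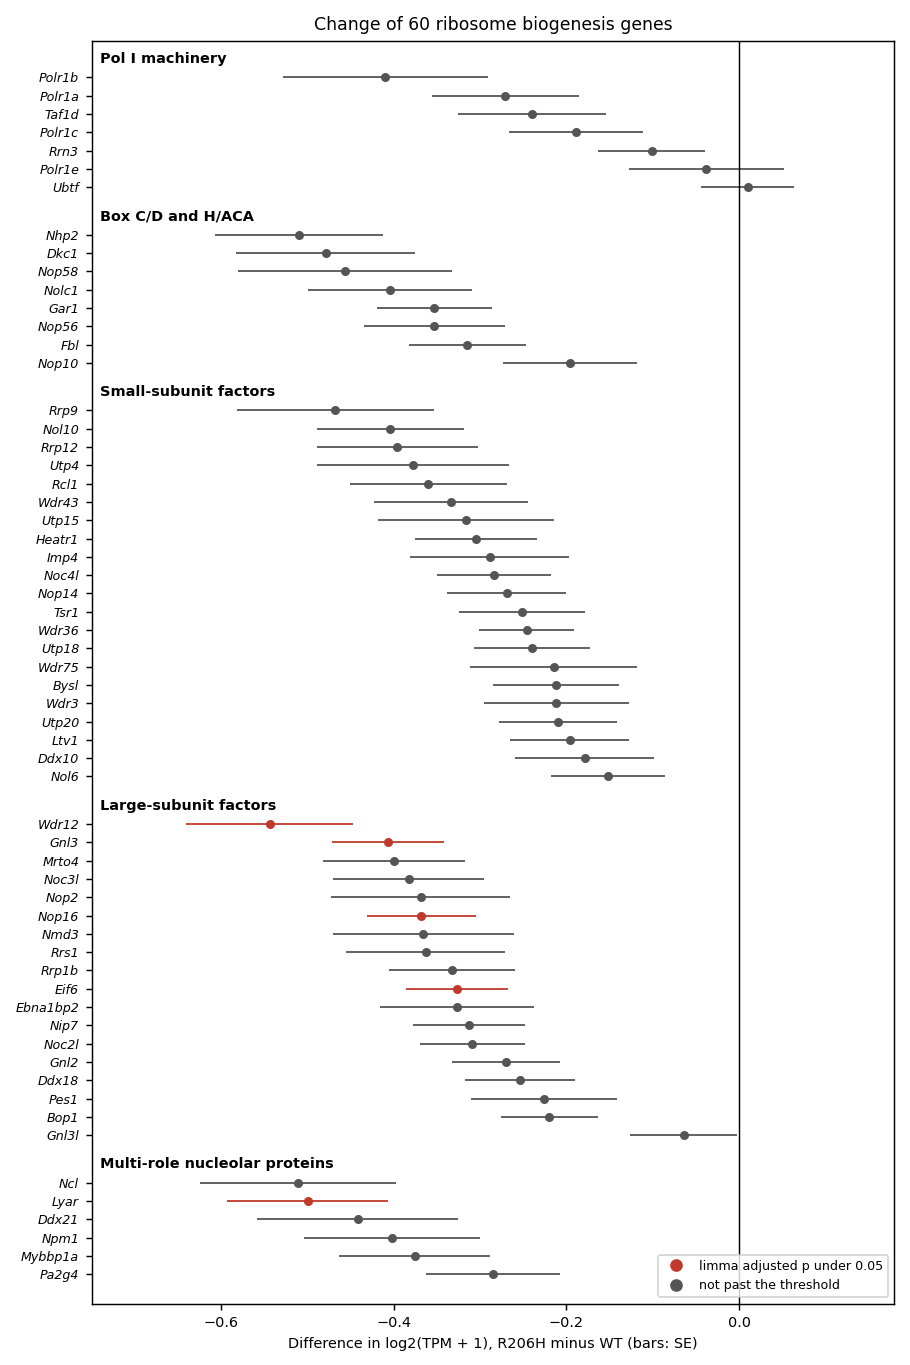
Points give the difference in log2(TPM + 1), R206H minus WT, of each of the 60 genes with its SE (x axis), grouped by class and sorted within it. Of the 60 points 59 lie left of 0, the 5 red points are the genes past the limma threshold, and the points nearest to 0 are Ubtf, Polr1e and Gnl3l.

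**Figure D3:**
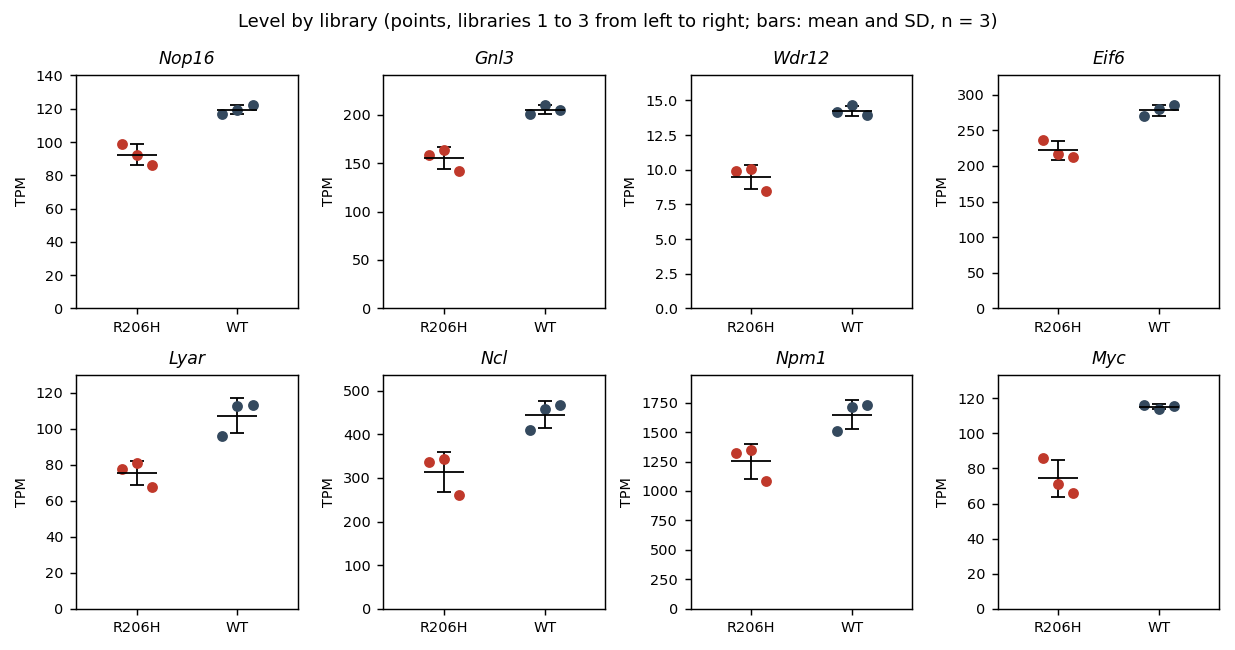
Points are TPM in single libraries (libraries 1 to 3 from left to right within a genotype) and bars the mean with its SD, n = 3, for the 5 called genes, Ncl, Npm1 and Myc, with R206H left of WT and axes starting at 0. In all 8 genes every R206H library lies under every WT library.

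Set side by side, the class medians of the log2 difference were -0.19 for the Pol I machinery, -0.38 for the modification particles, -0.27 for the small subunit, -0.33 for the large subunit and -0.42 for the nucleolar proteins with several roles. The summed levels changed by -9.3%, -23.6%, -18.2%, -19.7% and -24.3% in the same order. The order of the classes is a description, since no test between classes was made on a list chosen this way. Without R206H library 3 the medians of the nucleolar proteins, the modification particles and the large subunit nearly coincided, at -0.31, -0.30 and -0.28. The ranges overlap widely: Polr1b, at -0.41, was lower than most small-subunit genes. Across the 60 genes the difference had a Spearman rho of -0.201 with the mean level, and one near 0 with exon length. These genes share libraries, so the coefficients only describe them.

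The members lie on 20 chromosomes, and their mean level ran from 11.9 TPM for Wdr12 to 1449 TPM for Npm1, with a median of 84.3 TPM. The fewest reads estimated for a member in any library were 415, in an estimate from exon lengths. Exons of 26 members overlap those of another annotated gene, which reached 1 TPM or more for 14 of them (Polr1a, Taf1d, Nop56, Dkc1, Nhp2, Wdr3, Rrp9, Bysl, Heatr1, Tsr1, Gnl3, Wdr12, Bop1 and Mybbp1a). Among the called genes these were Gnl3, with Pbrm1 and 3 small nucleolar RNAs (snoRNAs), and Wdr12, with Carf. No source used here states the strand setting, so reads of such pairs cannot be told apart. Mrto4 has a pseudogene copy named after it, which makes its value less certain. Copies under other symbols were not searched for, so other members may have copies too.

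A feature that the choice of members did not use is the snoRNA genes between their start and end, with introns and exons not told apart. Annotated snoRNA genes lie inside 8 of the 60 members on the same strand (13.3%), against 1.74% of the 12587 protein-coding genes tested. The hosts were Taf1d, Nop56, Nop58, Dkc1, Wdr43, Tsr1, Gnl3 and Ncl, with 29 annotated snoRNAs in all. Their median log2 difference was -0.38, against -0.31 in the other members.

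Further genes of the pathway, listed by function, mostly differed in the same direction. Their list medians were nearer to 0 than the member median of -0.32. The Pol I machinery among the members, at -0.19, lay within the range of those list medians. Because the members were chosen with this comparison known, the gap is only a description. Of 19 other Pol I and snoRNA-particle factors tested, 16 had negative values with a median of -0.20, 9 were lower before adjustment, voom called 2, and 1 fell by limma: Naf1, an assembly factor of box H/ACA particles, with 18.8, 20 and 18.2 TPM in R206H libraries 1, 2 and 3, against 24.7, 24.9 and 27.1 TPM in WT libraries 1, 2 and 3 (log2 difference -0.41, SE 0.075, limma adjusted p = 0.0498). Ruvbl2, an ATPase that assembles box C/D particles, had -0.30 without passing (limma adjusted p = 0.059). Of 39 other small-subunit factors, 34 had negative values with a median of -0.15, and of 43 other large-subunit factors 40 did, with a median of -0.21. None of either list passed limma, with 15 and 21 lower and 2 and 0 higher at an unadjusted p under 0.05. By voom 5 and 5 were called, all lower. Among all genes tested, 46.4% had negative values, 11.7% were lower and 14.4% higher before adjustment, and voom called 4.11% lower. Pwp2, of the UTP-B group, had the smallest p among them, averaging 40.5 ± 2.83 TPM in R206H and 53 ± 2.37 TPM in WT (log2 difference -0.38, SE 0.073, limma adjusted p = 0.0508). Bms1, a GTP-binding protein of the processome, and Mdn1, the giant ATPase of large-subunit maturation, had -0.23 and -0.46, and Ppan had -0.25. The 13 genes of the RNA exosome, which trims the precursor, had a median of -0.17, where limma called 0, 4 were lower before adjustment and voom called 2. Exosc1 and Exosc2 had the smallest p in that list, with -0.27 and -0.34.

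Genes for the proteins of the finished ribosome differed little. Their summed level was 111684, 105531 and 109680 TPM in R206H libraries 1, 2 and 3 and 106017, 116301 and 117650 TPM in WT libraries 1, 2 and 3, and the groups overlapped. Of 81 cytosolic ribosomal protein genes, 68 had negative values, but the median was -0.05. None passed limma, while 3 were lower before adjustment and voom called 1. Among all genes tested, 46.4% had negative values, 11.7% were lower before adjustment and voom called 4.11% lower. Rps3, a protein of the small subunit, had a log2 difference of -0.15 (limma adjusted p = 0.145). Ribosomal protein genes have many processed copies in the genome, so single values are uncertain. The difference between these genes and the assembly factors was not tested.

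**Figure D4:**
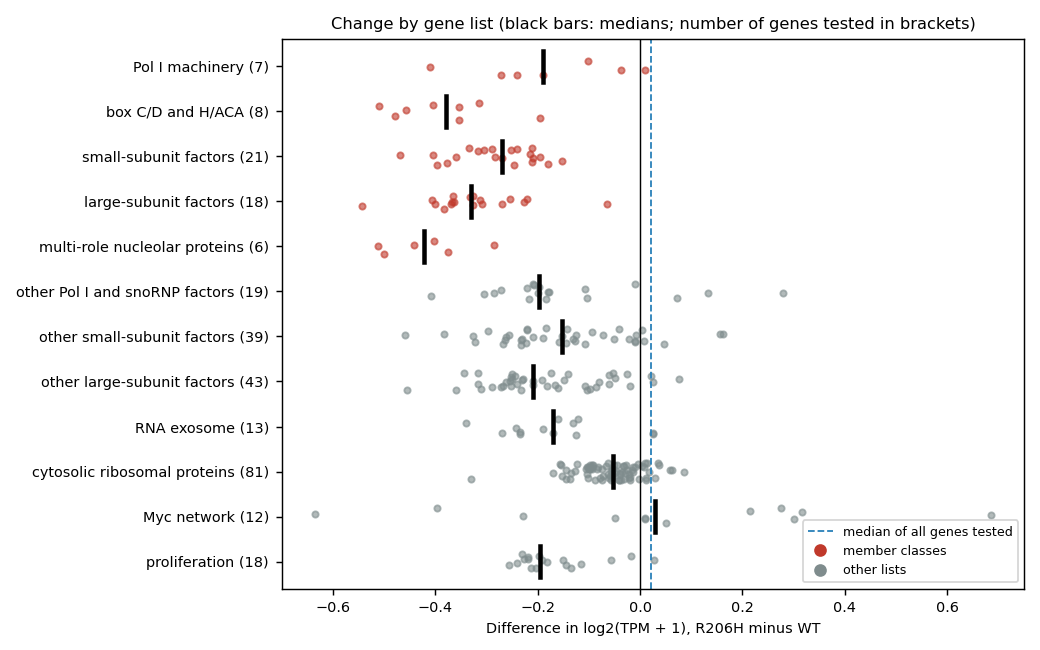
Each point is the difference in log2(TPM + 1), R206H minus WT, of 1 gene (x axis), for the 5 member classes in red and 7 other lists in grey, with medians as black bars and the median of all genes tested as a dashed line. The class medians run from -0.42 to -0.19, the other assembly factors from -0.21 to -0.15, and ribosomal proteins lie at -0.05.

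Myc, which is not a member, was the 1 gene of 12 in the list of its network to pass limma (voom called 1 lower and 1 higher). It fell in R206H, with 85.8, 71.1 and 66 TPM in R206H libraries 1, 2 and 3, against 116, 114 and 116 TPM in WT libraries 1, 2 and 3 (log2 difference -0.63, SE 0.096, limma adjusted p = 0.0454). The WT libraries were nearly equal, and the R206H libraries followed the order of the members, with library 1 the highest and library 3 the lowest. The call was kept in 9 of 17 alternatives, with adjusted p from 0.0143 to 0.156. Its partner Max had a log2 difference of 0.01, and the paralog Mycn -0.05 at 4.68 ± 1.11 TPM in R206H and 4.99 ± 1.92 TPM in WT. Mxd4, a repressor that competes for Max, had 21.7, 26.9 and 37.9 TPM in R206H libraries 1, 2 and 3, against 17.4, 16.9 and 16.9 TPM in WT libraries 1, 2 and 3 without passing (limma adjusted p = 0.0818). Of 18 proliferation genes, 17 had negative values with a median of -0.20, against 46.4% negative over all genes. After adjustment limma called 0. Before adjustment 11 were lower and voom called 3, against 11.7% and 4.11% of all genes. Pcna, the clamp of DNA replication, had -0.25 and Mcm3, of the replicative helicase, -0.22 (limma adjusted p = 0.0501 and 0.0728). The part of Myc or of proliferation in the members' levels was not tested.

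The promoter sequences are shown as a description, because Myc and Max bind a known motif, the E-box CACGTG. RefSeq promoters (GRCm38.p6, the first listed start of each gene) were at hand for 50 members. The others were Fbl, Wdr36, Rrp12, Nol6, Gnl2, Gnl3l, Eif6, Bop1, Rrs1 and Npm1. In the 250 bases before the start, CACGTG was present in 5 of 50 member promoters (10%), against 8.51% of 10197 promoters of genes tested and 6.05% of all 27025. The motif is its own reverse complement. The share in the members is thus close to that of the genes tested. The 5 genes had log2 differences of -0.29 (Imp4), -0.37 (Nmd3), -0.37 (Nop2), -0.24 (Utp18) and -0.10 (Rrn3), a median of -0.29 against -0.33 in the other member promoters. Each stretch holding the motif, in capitals, is given 5′ to 3′ in the direction of transcription; Rrn3 holds 2 and the one nearest the start is shown.
Imp4 (chr1:34439688-34439733, plus strand): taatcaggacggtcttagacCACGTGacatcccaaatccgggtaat
Nmd3 (chr3:69721921-69721966, plus strand): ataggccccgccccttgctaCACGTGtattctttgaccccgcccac
Nop2 (chr6:125131803-125131848, plus strand): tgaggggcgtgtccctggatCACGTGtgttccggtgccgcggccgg
Utp18 (chr11:93885767-93885806, minus strand): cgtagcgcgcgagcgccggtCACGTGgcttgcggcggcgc
Rrn3 (chr16:13780631-13780676, plus strand): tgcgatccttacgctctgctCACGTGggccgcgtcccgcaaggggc

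The 4 called members with a RefSeq promoter, Gnl3, Nop16, Wdr12 and Lyar, held no CACGTG in the 250 bases. Their last 150 bases before the start are given below, with GC boxes (GGGCGG on either strand, so CCGCCC also) in capitals. GC boxes lay in 35 of 50 member promoters (70%), against 60.4% of promoters of genes tested and 32.9% of all. The ETS motif CCGGAAGT (either strand) lay in 8 of 50 (16%), namely Gar1, Utp4, Nip7, Ltv1, Nhp2, Nol10, Heatr1 and Polr1c, against 5.88% of genes tested and 2.93% of all, and CCAAT (either strand) in 17 (34%), against 36.5% and 34.5%. The NRF1 palindrome was in 0 of 50, against 1.6% and 0.781%. The members with an ETS motif had a median log2 difference of -0.33, and those without -0.32. A match describes these letters and shows no binding.
Gnl3 (chr14:31019132-31019281, minus strand): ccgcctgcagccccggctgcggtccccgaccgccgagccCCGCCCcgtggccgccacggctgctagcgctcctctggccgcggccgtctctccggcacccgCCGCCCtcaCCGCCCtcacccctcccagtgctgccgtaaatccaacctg
Nop16 (chr13:54590075-54590224, minus strand): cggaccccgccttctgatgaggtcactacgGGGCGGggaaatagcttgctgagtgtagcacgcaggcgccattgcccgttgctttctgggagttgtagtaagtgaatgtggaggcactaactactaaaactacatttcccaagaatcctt
Wdr12 (chr1:60098501-60098650, minus strand): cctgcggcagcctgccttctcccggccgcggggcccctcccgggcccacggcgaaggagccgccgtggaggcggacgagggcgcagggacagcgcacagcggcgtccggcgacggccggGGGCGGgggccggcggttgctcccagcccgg
Lyar (chr5:38220332-38220481, plus strand): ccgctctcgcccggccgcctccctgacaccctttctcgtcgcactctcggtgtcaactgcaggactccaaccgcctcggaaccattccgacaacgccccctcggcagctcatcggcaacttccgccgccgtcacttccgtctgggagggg

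Some properties of the whole libraries moved with genotype. All 10 fibroblast markers were measured in every library; limma called 0 of them, 7 were higher before adjustment, and voom called 7 higher. Of 12 epithelial markers 10 were tested and limma called 2 lower after adjustment, Cldn3 and Epcam (log2 differences -1.82 and -1.48, limma adjusted p = 0.0272 and 0.0476). Esrp1 and Grhl2 averaged under 1 TPM. All 10 tested were lower before adjustment, and voom called 6. Among all genes tested, limma called 0.790% lower after adjustment and voom 4.11% lower. Before adjustment 11.7% were lower and 14.4% higher. Of 10 macrophage markers 8 were tested, with Fcgr1 and Ptprc under 1 TPM, and none passed (limma, 1 higher at an unadjusted p under 0.05, 0 by voom). Of 8 endothelial markers 5 were tested, with Pecam1, Tie1 and Cldn5 under 1 TPM, and none passed (limma, 2 lower at an unadjusted p under 0.05, 0 by voom). Genes of the mitochondrial genome held 3.43% to 3.85% of the TPM in R206H libraries and 4.16% to 4.57% in WT libraries. Estimated depth was 17800000 to 21700000 reads in R206H and 17500000 to 24600000 in WT. The part of these properties in the members' differences was not tested. Acvr1 itself averaged 44.4 ± 2.69 TPM in R206H and 34.7 ± 1.01 TPM in WT (log2 difference 0.35, SE 0.067, limma adjusted p = 0.0511), which does not check the genotype labels, since the allele is a single amino acid change.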

How the data were processed

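Per the labels' protocols, ribosomal RNA was removed and fragments were sequenced as 150 bp pairs. The authors deposited a TPM table of 6 libraries, each summing to 1000000. The submitters' processing notes name the builds mm10 and GRCm38 and the tools STAR, Trimmomatic, DESeq2, Subread and featureCounts, with no role or version. TPM is a share, so the level of a gene also depends on all other genes, and RNA without poly(A) selection can include unspliced RNA.

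The filter kept genes with at least 3 libraries at 1 TPM or above. Values of log2(TPM + 1) went into limma (version 3.58.1, R 4.3.3; lmFit, eBayes with trend, two-sided, Benjamini-Hochberg at 0.05), with no covariate. A pseudocount of 1 understates changes of weakly expressed genes, among the members that of Wdr12, the least abundant. Depth was estimated with GENCODE M21 exon lengths: after multiplying TPM by length, whole reads (within 0.05) were found for 91.2% to 91.5% of values under 100 reads. Of 49315 identifiers, 259 matched no length. The rebuilt reads were used in limma voom only. The fit was also run on simulated reads that held no order among the R206H libraries, so that run does not bear on the members' calls. Python 3.11.15, pandas 2.3.3 and matplotlib 3.10.9 were used for joining and plotting. No pair of libraries shared more than 1 identical value above 0.

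Members and lists were chosen with earlier results of these data known. Named were all called members, then per class the 6 with the smallest p and the 2 with the highest mean, the 2 with the lowest mean of all, and in each other list the 2 with the smallest p; the remaining members are given by their difference, but Nop10, Nop2, Pes1, Bop1 and Gnl3l were described further after their values were seen. One gene that this rule names is not reported here. The 17 alternatives changed the pseudocount, filter, scaling, variance model, weights, replicate block or libraries.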

Additional observations from a re-analysis of the deposited data

How the results depend on the processing

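The direction held and the calls did not. In all 17 alternatives the median difference of the members stayed between -0.35 and -0.25, and 58 to 60 of 60 values were negative. The number of members called, 5 with the reported settings and all lower, was 1 with a pseudocount of 0.1 and 3 with a pseudocount of 5. It was 0 with no filter, 15 with a filter at 5 TPM, 3 with median-of-ratios scaling and 2 with quantile normalization. Without the variance trend it was 0, with library weights 39 and with voom 40. It was 5, the same genes, when TPM was rescaled after removing mitochondrial genes and the 50 most abundant. Leaving out single libraries gave 0 to 20. Over all genes, calls in either direction were 303 with the reported settings and 129 and 231 with pseudocounts of 0.1 and 5. They were 2 with no filter, 587 with the 5 TPM filter, 288 with median-of-ratios scaling and 200 with quantile normalization. Without the variance trend they were 27, with library weights 1906, with voom 1289 and after rescaling 322. Leaving out single libraries gave 0 to 722. With no filter 27190 genes share the adjustment, and leaving out a library leaves fewer samples. Why the number of calls differed was not tested for any setting. With the replicate number as a block limma called 0 members and 0 of all genes. At an unadjusted p under 0.05 in that fit, 49 members were lower, against 10% of all genes. Same-numbered libraries had correlations of 0.018, 0.060 and -0.028 between their deviations from the group means. With 3 libraries per genotype these values cannot decide whether the numbers pair the samples. Among the class medians, that of the Pol I machinery was -0.26 instead of -0.19 without WT library 1, in a range of -0.26 to -0.14 over the single libraries left out. Without R206H library 3 those of the multi-role proteins, the modification particles and the large subunit were -0.31, -0.30 and -0.28 instead of -0.42, -0.38 and -0.33. Scaling moved the median of all genes from 0.02 to between -0.01 and 0.02. At an estimated 415 reads or more in every library, no member was near the filter. The planned description of protein composition was not run.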
